A study of Sus scrofa with 11 samples.

Results

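Chemokines and their receptors were examined in full-thickness skin wounds of Yucatan minipigs, as all genes of the expression table whose symbol begins with CCL, CXCL, CCR, CXCR, CX3CL, CX3CR, XCL or XCR and a number. This rule took 47 of the 30376 genes, 30 of them ligands and 17 receptors. Bulk poly(A) RNA was sequenced from 11 wounds excised on day 10, each giving a library of its own. The 7 diabetic wounds came from a single female minipig made diabetic with streptozotocin (STZ), a toxin of pancreatic beta cells, and kept on insulin until shortly before wounding. The 4 non-diabetic wounds came from a single female minipig that had neither, and all wounds of both animals were made with the same punch on the back. The p-values below therefore measure how wounds of a single animal spread, and the effect of diabetes cannot be told apart from any other difference between these 2 animals. Levels are given as FPKM, fragments scaled to the length of the gene and by a factor for each library. Reads assigned to genes numbered 28314785 to 40168372 per library, and 1 read on a gene of 1 kb was worth 0.0224 to 0.0388 FPKM. This worth did not follow the read totals alone. It was 0.0224 FPKM in diabetic wound 2 with 37922563 reads and 0.0306 FPKM in diabetic wound 5 with 37723496 reads.

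Chemokines are small secreted proteins that bind receptors with 7 membrane passes on leukocytes and draw these cells along a gradient. The classes are named after the spacing of their first cysteines, which gives the CC, CXC, CX3C and XC ligands and receptors. In healing skin, ligands of CXCR2 such as CXCL8 are known for attracting neutrophils, CCL2 for attracting monocytes through CCR2, and CCL19 and CCL21 for guiding dendritic cells and T cells through CCR7. Keratinocytes are a known source of CCL27, CXCL14 and CCL20, and stromal cells of CXCL12. Atypical receptors such as ACKR1 bind chemokines without the usual G protein signal and take them up or carry them across vessel walls.

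Of the 47 genes, 37 reached an FPKM of 0.5 in at least 4 wounds and entered the test, 26 ligands and 11 receptors. Of these, 26 reached that level in all 11 wounds. CCR3 and CXCL11 lay just inside the limit with 4 wounds each, and CXCR3 and CXCR5 just outside it with 3. CCL26 and CCR3 passed through diabetic wounds alone, so their place among the tested genes depended on their level there. The 10 genes under the limit were CCL1, CCL16, CCL17, CCR4, CCR8, CCR9, CXCR3, CXCR5, XCL1 and XCR1.

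Diabetic wound 4 and non-diabetic wound 1 stood apart from the other 9 libraries along the first principal component of all tested genes, which held 44.53% of the variance. Summed over 9 keratinocyte markers, FPKM was 38.3 in diabetic wound 4 and 284 in non-diabetic wound 1, against 1660 to 6740 in the others. For the neutrophil list the summed FPKM, mostly from S100A8, S100A9 and S100A12, which wound keratinocytes also make, was 66.9 and 328 in these wounds, against 3820 to 12600 in the others. Diabetic wound 3 held skeletal muscle transcripts at a summed FPKM of 1850, where no other wound exceeded 10.6. Fibroblast markers summed to 19400 to 66600 FPKM and were high in every wound. In bulk tissue, fewer cells of a type and less RNA per cell cannot be told apart.

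A handful of ligands held most of the summed ligand signal in both animals. CXCL14, CCL27, CCL19, CCL2 and CCL21 together held 67.1% to 84.6% of the summed ligand FPKM in diabetic wounds and 76.5% to 87.5% in non-diabetic wounds. Over all ligands, summed FPKM ranged from 704 to 843 in diabetic wounds and from 638 to 980 in non-diabetic wounds, so the totals overlapped. All receptors together reached 33.1 to 55.7 FPKM in diabetic and 35.7 to 54.7 FPKM in non-diabetic wounds.

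**Figure D1:**
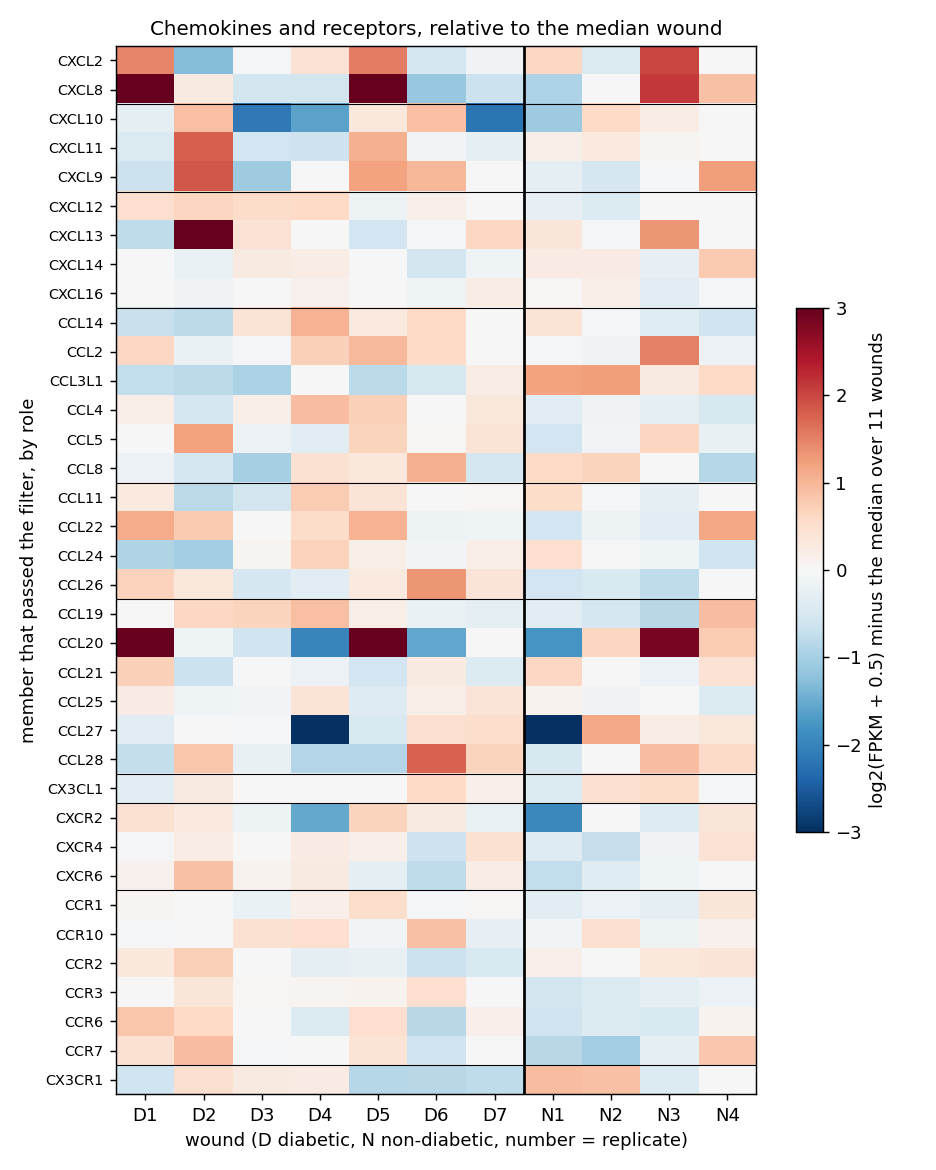
Level of 36 of the 37 tested genes (rows, grouped by role) in each of the 11 wounds (columns, diabetic D1 to D7 and non-diabetic N1 to N4), as log2(FPKM + 0.5) minus the median over the 11 wounds, with colours saturated beyond 3. CXCL8 and CCL20 stand out in D1, D5 and N3, CCL27 is far below its median in D4 and N1, and CCL3L1 is the row whose colours divide most clearly between the animals.

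The groups were compared with limma on log2(FPKM + 0.5), and the name of a called gene is kept for those with a log2 fold change beyond 0.5 in either direction and an adjusted p below 0.05. Over the 13956 genes tested, 419 were called, which is 3.00%. In diabetic wounds 188 genes were called higher (1.35%) and 231 lower (1.66%). Among the 37 chemokine and receptor genes 1 was called, CCL3L1, which was lower in diabetic wounds, and 0 were called higher. At an unadjusted p under 0.05 with the same fold limit there were 4 of the 37 (CCL3L1, CCL4, CCL26 and CCR3), where 7.13% of all tested genes passed. The estimates were above 0 for 20 of the 37 and below 0 for 17, with a median log2 fold change of 0.09 against 0.01 over all tested genes. Ligands had a median of -0.02 over 26 genes and receptors a median of 0.25 over 11. The groups did not overlap for CCL3L1 and CCR3, 2 of 37, where 5.65% of all tested genes had groups that did not overlap. The counts of called genes and of genes without overlap lie near these background shares and are no result about the family.

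**Figure D2:**
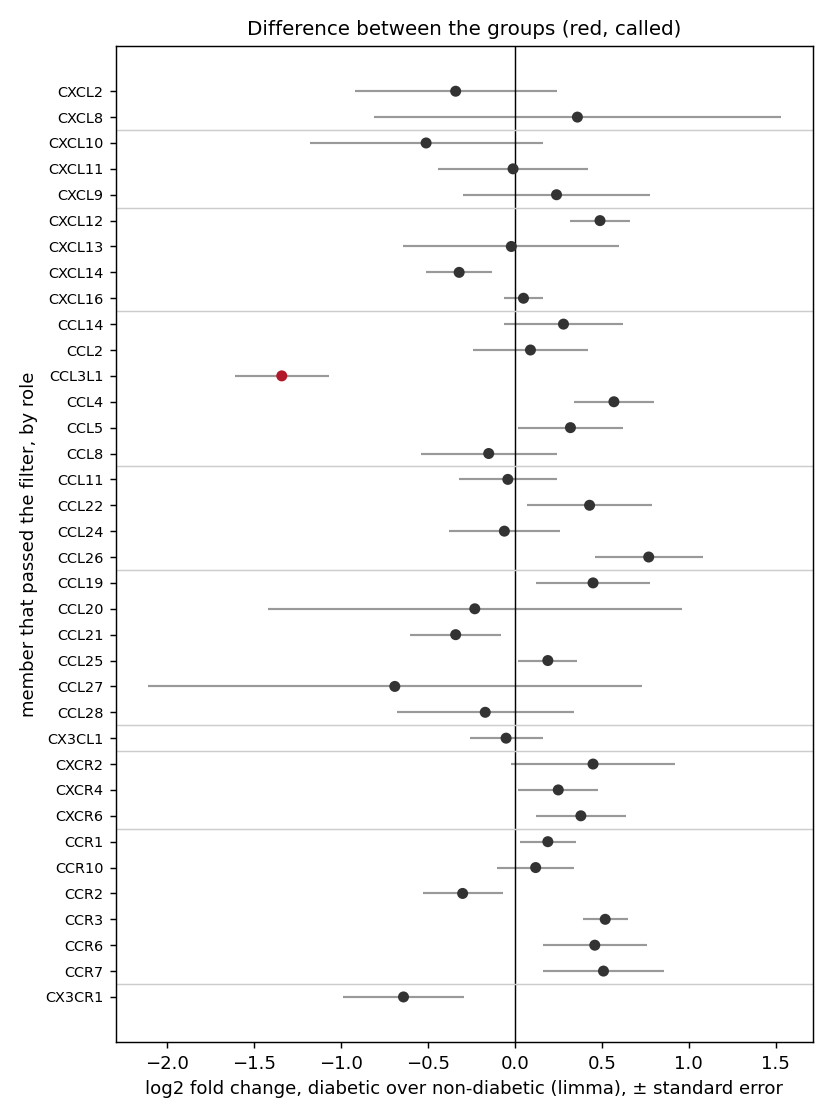
Log2 fold change of diabetic over non-diabetic wounds for 36 of the 37 tested genes, with 1 standard error to each side, from limma on log2(FPKM + 0.5). CCL3L1 at -1.34 is the called gene (red). CCL27, CCL20 and CXCL8 have the longest bars, with standard errors of 1.42, 1.19 and 1.17.

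CCL3L1, annotated as a CCL3-like ligand of CCR1 that draws monocytes and T cells, was lower in every diabetic wound than in any non-diabetic wound. The diabetic wounds had a lowest level of 0.451 FPKM, a median of 0.595 and a highest of 1.65, and the mean was 0.850 ± 0.464 (SD, n = 7). The 4 non-diabetic wounds had 3.72, 3.90, 1.73 and 2.28 FPKM, with a mean of 2.91 ± 1.07 (SD, n = 4). The highest diabetic wound lay just under the lowest non-diabetic wound. The log2 fold change was -1.34 (SE 0.27, limma adjusted p = 0.0194). The signal rested on few reads, 5 to 12 per diabetic wound and 30, 35, 17 and 25 in the non-diabetic wounds. The adjusted p of limma was 0.0700 without non-diabetic wound 1 (log2 fold change -1.22) and 0.0640 without non-diabetic wound 2 (-1.20), and it was 0.0549 without both libraries that stood apart (-1.31). Library names begin with L or R, letters whose meaning the labels do not give. The ending of the names, also unexplained, differs between the groups and is the same within each. Whatever it stands for cannot be told apart from the group. In the 5 libraries named L the log2 fold change was -2.06 (adjusted p = 0.0454), and in the 6 named R it was -0.71 (adjusted p = 0.176). The difference between these estimates was 1.35, with a limma adjusted p of 0.0601.

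The annotated CCL3L1 gene lies on the plus strand of Sscrofa11.1 at chr12:39491999-39493345, and its 282 counted bases are the coding sequence alone, without UTRs. Reads lying wholly in its UTRs were therefore not counted. A second gene described as C-C motif chemokine 3, LOC100515857, lies on the same chromosome, and it was listed between 0 and 0.393 FPKM in diabetic wounds and between 0.0621 and 0.414 FPKM in non-diabetic wounds. The coding sequences were aligned to see whether reads could be shared. They were 77.7% identical, with 63 of the 282 bases of CCL3L1 differing from LOC100515857 and a longest identical run of 26 bases. The coding sequence of CCL3L1, 5′ to 3′, is printed because it is the whole counted target of the called gene, and capitals mark the bases that differ from LOC100515857.
CCL3L1: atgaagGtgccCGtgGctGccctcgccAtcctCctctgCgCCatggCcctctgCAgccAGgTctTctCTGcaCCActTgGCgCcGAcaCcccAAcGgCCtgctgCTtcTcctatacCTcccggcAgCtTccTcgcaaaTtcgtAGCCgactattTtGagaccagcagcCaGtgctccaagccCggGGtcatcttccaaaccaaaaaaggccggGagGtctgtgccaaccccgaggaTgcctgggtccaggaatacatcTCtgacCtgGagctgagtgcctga

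CCL4, another attractant of monocytes and T cells, is encoded in the same cluster on the minus strand (chr12:39479190-39480511) and had an estimate of the opposite sign. The diabetic wounds had 4.87 FPKM at the lowest, 8.33 at the median and 14 at the highest, and the non-diabetic wounds had 5.49, 6.62, 5.77 and 4.98 FPKM. All but the lowest diabetic wound lay above the highest non-diabetic wound. CCL4 had a log2 fold change of 0.57 (SE 0.23, limma adjusted p = 0.204). The ratio of CCL4 to CCL3L1 FPKM, formed after these values were seen and given as a description, was 5.58 to 22.1 in diabetic wounds with a median of 10.5. In the non-diabetic wounds it was 1.48, 1.70, 3.33 and 2.19. The ratios of the 2 animals did not overlap.

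**Figure D3:**
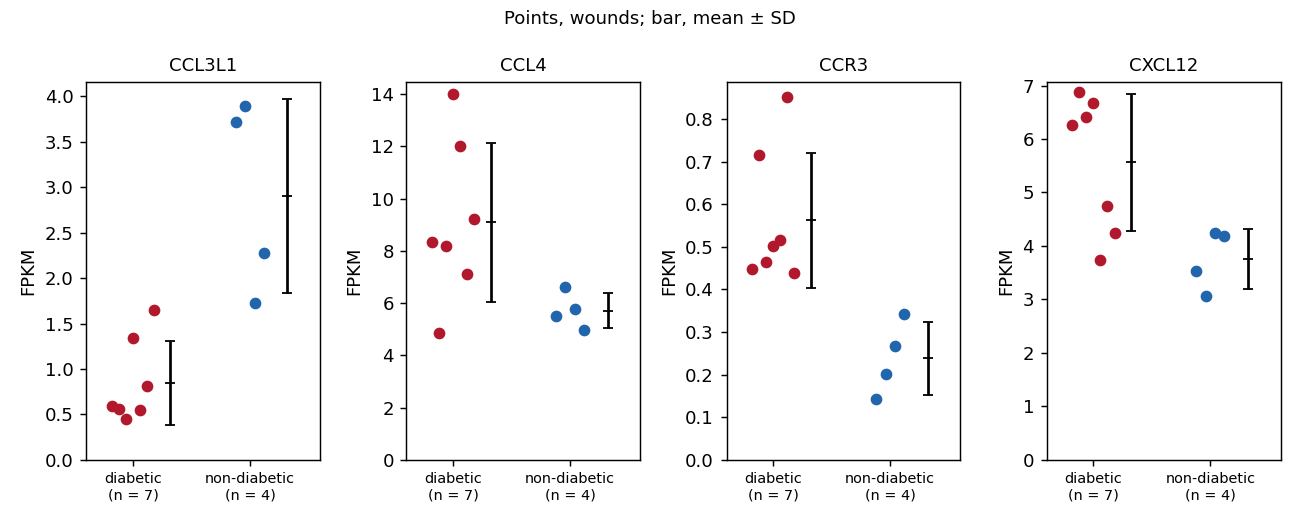
FPKM of CCL3L1, CCL4, CCR3 and CXCL12 in each wound (points, 7 diabetic in red and 4 non-diabetic in blue), with the mean and SD of each group as a bar beside the points. The groups are separate for CCL3L1 and CCR3 and overlap for CCL4 and CXCL12.

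CCR1, a receptor of CCL3L1 that is carried by monocytes and neutrophils, had 7.56 to 12.8 FPKM in diabetic wounds (median 8.90) and 6.83, 7.71, 7.01 and 11.4 in non-diabetic wounds. The groups overlapped, with a log2 fold change of 0.19 (SE 0.16, limma adjusted p = 0.578). Of the 2927 counted bases of CCR1, 243 are shared with exons of XCR1 on the same strand, which leaves its level uncertain to that extent. CCL5, a ligand of CCR1 and CCR3 made by T cells, had medians of 11.2 and 9.86 FPKM in diabetic and non-diabetic wounds, with a log2 fold change of 0.32 (SE 0.30).

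CCL2, the main attractant of CCR2-bearing monocytes, ranged from 45.9 to 103 FPKM in diabetic wounds with a median of 80.5. The non-diabetic wounds had 51.3, 48.6, 150 and 46.5 FPKM, so that non-diabetic wound 3 was above every other wound and the remaining 3 lay near the lowest diabetic wounds. The log2 fold change was 0.09 (SE 0.33), and without non-diabetic wound 3 it was 0.49, still with no call. CCR2 had 1.38 to 4.30 FPKM in diabetic wounds (median 2.00) and 2.77, 2.43, 3.19 and 3.35 in non-diabetic wounds, and the log2 fold change was -0.30 (SE 0.23, limma adjusted p = 0.537). In the libraries named R alone the log2 fold change of CCR2 was -0.77 (adjusted p = 0.0326) and in those named L it was 0.27 (adjusted p = 0.576). The difference between the 2 letters was -1.04, with a limma adjusted p of 0.0555. CCL8, another CCR2 ligand, had medians of 11.6 and 16.7 FPKM. CX3CR1, the receptor of resident and patrolling monocytes, had 0.567 to 2.21 FPKM in diabetic wounds and 3.18, 3.05, 0.957 and 1.43 in non-diabetic wounds (log2 fold change -0.64, SE 0.35, limma adjusted p = 0.366). Its ligand CX3CL1 had medians of 2.95 and 3.6 FPKM (log2 fold change -0.05). CCL14 had medians of 18.5 and 13.0 FPKM (log2 fold change 0.28).

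Macrophage markers also differed between the groups. Of 12 markers tested, 3 were called higher in diabetic wounds (CD14, MRC1 and CD209) and 0 lower, where 1.35% of all tested genes were called higher. The summed FPKM of the list was 803 to 1860 in diabetic wounds and 495 to 918 in non-diabetic wounds, and the defining marker CD68 was present in every wound. The part of macrophage content in the values of CCL2, CCR1, CCR2 and CX3CR1 was not tested.

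CCR3, the eotaxin receptor known from eosinophils, mast cells and basophils, was the other gene whose groups did not overlap. The diabetic wounds had 0.439 FPKM at the lowest, 0.503 at the median and 0.851 at the highest, from 39 to 110 reads, and the non-diabetic wounds had 0.142, 0.201, 0.267 and 0.343 FPKM, from 14 to 46 reads. Every diabetic wound lay above every non-diabetic wound. CCR3 had a log2 fold change of 0.52 (SE 0.13, limma adjusted p = 0.0593), which missed the threshold, and as the gene passed the expression limit through diabetic wounds alone its separation is a description. On the recovered reads with voom the log2 fold change was 1.22 (adjusted p = 0.0592), since the added 0.5 FPKM shrinks the fold of a gene at this level.

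The eotaxins themselves overlapped between the animals. CCL24 had 7.33 to 25.2 FPKM in diabetic wounds (median 16.5) and 22.1, 15.5, 14.1 and 10.0 in non-diabetic wounds. CCL11 had medians of 1.77 and 1.64 FPKM. CCL26 had 0.10 to 1.64 FPKM in diabetic wounds (median 0.572) and 0.0687, 0.124, 0 and 0.353 in non-diabetic wounds, with a log2 fold change of 0.77 (SE 0.31, limma adjusted p = 0.209). It rested on 2 to 22 reads per diabetic wound and at most 7 per non-diabetic wound, and it passed the expression limit through diabetic wounds alone. The summed FPKM of the 7 other eosinophil and mast cell markers in the table, CCR3 left out, was 3.19 to 6.56 in diabetic wounds and 2.86 to 5.58 in non-diabetic wounds. Most of this sum came from MS4A2 (log2 fold change 0.41, SE 0.22) and KIT (-0.36, SE 0.24), which had opposite signs and were not called. IL5RA had at most 0.0176 FPKM in any wound, and the granule genes EPX and CPA3 were at 0 in every library. CCL22 and CCL17 call T cells through CCR4. CCL22 had medians of 2.58 and 1.28 FPKM (log2 fold change 0.43, SE 0.36), and CCL17 and CCR4 stayed under the expression limit with at most 0.695 and 0.399 FPKM in any wound.

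CXCL12, the stromal ligand that retains CXCR4-bearing leukocytes and progenitors, had 3.74 FPKM at the lowest, 6.27 at the median and 6.87 at the highest in diabetic wounds. The non-diabetic wounds had 3.53, 3.07, 4.24 and 4.18 FPKM. Diabetic wounds 1 to 4 formed a group above 6 FPKM, and wound 5, the lowest, lay inside the non-diabetic range. CXCL12 had a log2 fold change of 0.49 (SE 0.17, limma adjusted p = 0.146). It was 0.89 in the libraries named L (adjusted p = 0.119) and 0.16 in those named R (adjusted p = 0.655). CXCR4, the most abundant receptor, had 10.2 to 22.2 FPKM in diabetic wounds (median 17.7) and 12.2, 9.65, 14.9 and 21.8 in non-diabetic wounds, with a log2 fold change of 0.25 (SE 0.23). CXCL16, a membrane-bound ligand of CXCR6, varied least of the tested ligands among diabetic wounds, with 23.9 to 30.9 FPKM in diabetic wounds (median 26.3) and 27.0, 30.3, 20.7 and 25.8 in non-diabetic wounds. CXCR6, whose exons overlap those of FYCO1 on the other strand by 333 bases, had medians of 0.849 and 0.550 FPKM.

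CXCL14 was the most abundant ligand in the mean over all wounds. It had 172 to 302 FPKM in diabetic wounds (median 251) and 300, 299, 212 and 436 in non-diabetic wounds, with a log2 fold change of -0.32 (SE 0.19, limma adjusted p = 0.421). CCL27, which guides T cells to the epidermis through CCR10, had 0.313 FPKM at the lowest, 133 at the median and 201 at the highest in diabetic wounds. The non-diabetic wounds had 15.7, 308, 161 and 176 FPKM. The lowest values of CCL27 belonged to diabetic wound 4 and non-diabetic wound 1, the wounds with the lowest summed keratinocyte markers, and CXCL14 was 292 and 300 FPKM in these wounds. The log2 fold change of CCL27 was -0.69 (SE 1.42), and it was 0.38 without diabetic wound 4. Keratinocyte markers had 0 called genes of 9 tested by limma, where 3.00% of all tested genes were called. They had 0 at an unadjusted p under 0.05, and their part in CCL27 was not tested. CCR10 had medians of 0.943 and 0.973 FPKM, and CCL28, its other ligand, had medians of 0.286 and 0.644 FPKM.

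**Figure D4:**
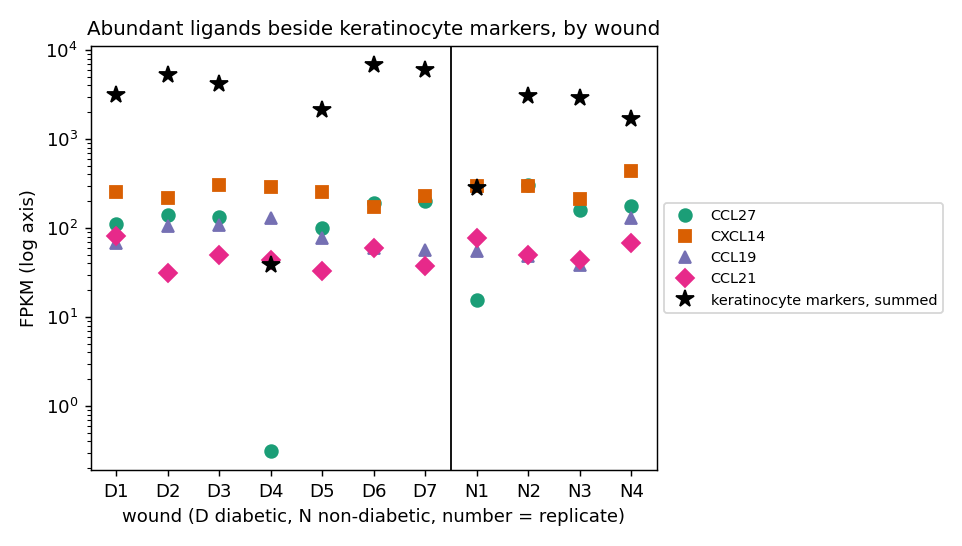
FPKM on a log axis of CCL27, CXCL14, CCL19 and CCL21, with the summed FPKM of 9 keratinocyte markers (stars), in each diabetic (D) and non-diabetic (N) wound. The star and the CCL27 point drop together in D4 (38.3 and 0.313 FPKM) and N1 (284 and 15.7 FPKM), and the other 3 ligands lie within the range of the remaining wounds there.

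CCL19 and CCL21, the CCR7 ligands of lymphoid stroma and lymphatic vessels, overlapped between the animals. CCL19 had 56.1 to 128 FPKM in diabetic wounds (median 77.1) and 54.8, 47.9, 38.3 and 131 in non-diabetic wounds, with a log2 fold change of 0.45 (SE 0.33, limma adjusted p = 0.519). CCL21 had 31.5 to 82.0 FPKM in diabetic wounds (median 43.5) and 76.4, 50.1, 43.5 and 67.4 in non-diabetic wounds, with a log2 fold change of -0.34 (SE 0.26, limma adjusted p = 0.533). CCR7 had 1.24 to 4.57 FPKM in diabetic wounds (median 2.17) and 0.992, 0.776, 1.67 and 4.12 in non-diabetic wounds. For CCR7 the log2 fold change was 0.51 (SE 0.35, limma adjusted p = 0.491) over all wounds, 1.39 in the libraries named L and -0.31 in those named R. CXCL13, the B cell attractant, reached 21.4 FPKM in diabetic wound 2 and was at most 3.42 in the other diabetic wounds, and its receptor CXCR5, with at most 0.812 FPKM, stayed under the expression limit. Summed FPKM of B and plasma cell markers was 185 to 268 in diabetic wounds and 156 to 200 in non-diabetic wounds, and CD79A, CD79B, MZB1 and POU2AF1 were called higher in diabetic wounds. The part of these cells in CXCL13 was not tested.

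The widest differences lay within an animal. Of the 37 genes, 10 had a highest diabetic wound at least 10 times the lowest or a lowest wound at 0, and 5 did so among the 4 non-diabetic wounds. CXCL8, the chief neutrophil attractant, had 1.51 FPKM at the lowest, 2.52 at the median and 90.6 at the highest in diabetic wounds. Diabetic wounds 1 and 5 held 90.6 and 88.6 FPKM, and the next diabetic wound held 4.79. The non-diabetic wounds had 1.81, 3.89, 18.6 and 7.51 FPKM. CCL20, which attracts CCR6-bearing dendritic cells and T cells, had 30.7 and 20.8 FPKM in diabetic wounds 1 and 5 and 0.0767 to 1.79 in the other 5. The non-diabetic wounds had 0.170, 3.06, 16.0 and 3.40 FPKM. Within each animal the same wounds were high in both genes, diabetic wounds 1 and 5 and non-diabetic wound 3.

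CXCL2, another CXCR2 ligand, followed the same wounds with 21.5 and 22.8 FPKM in diabetic wounds 1 and 5, 2.75 to 10.3 in the other diabetic wounds and 31.7 in non-diabetic wound 3. LOC100525396, described as a growth-regulated protein homolog and not taken by the naming rule, had 31.7 and 31.1 FPKM in diabetic wounds 1 and 5 and at most 2.15 in the other diabetic wounds. Its coding sequence was 96.0% identical to that of CXCL2 over 324 aligned bases, so reads could have been exchanged between them. AMCF-II, a porcine neutrophil attractant outside the rule, had 4.32 and 7.38 FPKM in diabetic wounds 1 and 5 and 0.434 to 1.76 in the other diabetic wounds. Of the 10 neutrophil markers in the table, 2 were above all other diabetic wounds in both wounds 1 and 5 (TREM1 and CSF3R), 1 was below them in both (PGLYRP1) and 7 were neither. TREM1, a receptor of activated neutrophils and monocytes, had 2.07 and 5.79 FPKM in these wounds and 0.410 to 0.635 in the other diabetic wounds. CSF3R, the neutrophil growth factor receptor, had 6.11 FPKM in diabetic wound 1 and its highest diabetic value in wound 5, against 3.70 to 5.84 in the others. PGLYRP1, a neutrophil granule protein under the expression limit, had 0.167 and 0.183 FPKM in wounds 1 and 5 and 0.228 to 3.16 in the other diabetic wounds. S100A8, which wound keratinocytes also make, was 2080 and 2070 FPKM in wounds 1 and 5, inside the range of the other diabetic wounds. The part of neutrophil content in this pattern was not tested.

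**Figure D5:**
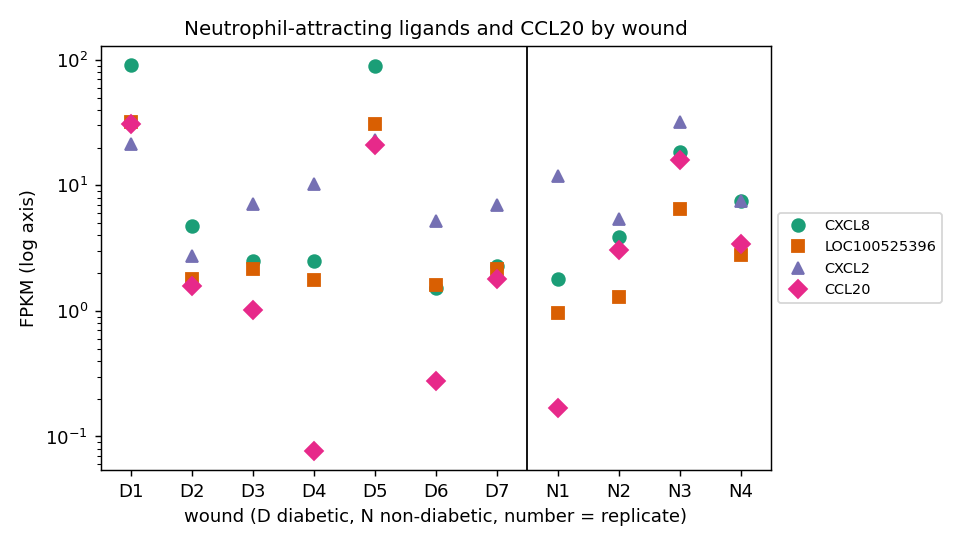
FPKM on a log axis of CXCL8, LOC100525396, CXCL2 and CCL20 in each diabetic (D) and non-diabetic (N) wound. In D1 and D5 CXCL8 reaches 90.6 and 88.6 FPKM and CCL20 30.7 and 20.8 FPKM, and in the non-diabetic animal N3 is the highest wound for all 4 genes.

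The 250 bases before the annotated starts of CXCL8, CXCL2 and CCL20 are shown because these ligands were high in the same wounds. A loose and a strict spelling of the NF-kB element, GGNNTTTCC and GGAATTTCC, and the AP-1 element TGANTCA were searched on both strands. Every match of the strict spelling is also a match of the loose one and is counted under both. The capitals mark the matches found by these searches, and the sequences are those of Sscrofa11.1 read along the strand of the gene, CXCL8 from chr8:69932396-69932645, CXCL2 from chr8:70157003-70157252 and CCL20 from chr15:129172493-129172742, all on the plus strand.
CXCL8: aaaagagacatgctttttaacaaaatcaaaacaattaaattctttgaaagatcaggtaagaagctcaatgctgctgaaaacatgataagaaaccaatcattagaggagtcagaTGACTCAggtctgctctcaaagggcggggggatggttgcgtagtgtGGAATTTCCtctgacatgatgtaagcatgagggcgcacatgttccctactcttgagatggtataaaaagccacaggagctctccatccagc
CXCL2: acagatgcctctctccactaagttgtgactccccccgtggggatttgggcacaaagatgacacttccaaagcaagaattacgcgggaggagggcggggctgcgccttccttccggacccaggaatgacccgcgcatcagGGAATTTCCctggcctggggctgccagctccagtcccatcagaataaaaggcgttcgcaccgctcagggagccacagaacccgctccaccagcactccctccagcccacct
CCL20: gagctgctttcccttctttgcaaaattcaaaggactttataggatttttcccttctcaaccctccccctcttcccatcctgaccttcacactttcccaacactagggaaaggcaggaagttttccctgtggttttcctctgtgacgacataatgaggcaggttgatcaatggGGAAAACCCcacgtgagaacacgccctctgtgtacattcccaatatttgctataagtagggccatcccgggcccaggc

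GGNNTTTCC was found before 9 of the 47 genes (CCL1, CCL20, CCL4, CCL5, CXCL10, CXCL11, CXCL2, CXCL8 and CXCR5) and in 5.26% of 19559 windows of the same length before protein-coding genes. GGAATTTCC was found before 4 of the 47 (CCL4, CXCL10, CXCL2 and CXCL8) and in 0.368% of all windows. TGANTCA was found before 7 of the 47, CXCL8 among them, and in 5.27% of all windows. LOC100525396 and AMCF-II, also high in diabetic wounds 1 and 5, lie outside the naming rule and are not among the 47. LOC100525396 had 0 matches of any of these motifs before its start. AMCF-II had 1 match of GGAATTTCC and 0 of TGANTCA. The motif counts were not tested. A match is a description of these letters, and no binding was measured.

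CXCR2, the receptor of CXCL8 and CXCL2, had 0.215 to 2.75 FPKM in diabetic wounds (median 1.97) and 0.0434, 1.56, 1.08 and 2.16 in non-diabetic wounds. The lowest values again belonged to diabetic wound 4 and non-diabetic wound 1. The log2 fold change was 0.45 (SE 0.47, limma adjusted p = 0.665). LOC100515345, also described as CXCR2 and 92.2% identical to it in coding sequence, had at most 1.58 FPKM in any wound. In diabetic wounds 1 and 5 CXCR2 had 2.32 and 2.75 FPKM, and LOC100515345 had 1.30 and 1.58 FPKM. The other diabetic wounds had at most 2.02 FPKM of CXCR2 and 0.546 FPKM of LOC100515345. Among the non-diabetic wounds both genes were highest in wound 4 (2.16 and 1.12 FPKM), not in wound 3. CCR6, the receptor of CCL20, had 0.212 to 1.76 FPKM in diabetic wounds and 0.338, 0.442, 0.412 and 0.864 in non-diabetic wounds (log2 fold change 0.46, SE 0.30, limma adjusted p = 0.448).

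The interferon-inducible ligands CXCL9, CXCL10 and CXCL11, which bind CXCR3 on activated T cells, also varied widely within the diabetic animal. CXCL10 had 1.98 to 20.5 FPKM in diabetic wounds (median 8.85) and 4.83, 16.5, 12.6 and 10.8 in non-diabetic wounds, with a log2 fold change of -0.51 (SE 0.67, limma adjusted p = 0.738). CXCL9 and CXCL11 had their highest value in diabetic wound 2, with 9.65 and 2.71 FPKM. CXCR3 stayed under the expression limit and also had its highest value there, 1.28 FPKM. The summed T and NK cell markers were 66.2 FPKM in diabetic wound 2, the highest of all wounds, and 35.4 to 58.1 in the others, and their part in these values was not tested.

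Ligand and receptor were set side by side for 31 pairs, of which 30 had both genes in the table and 21 had both tested. The estimates had the same sign in 10 of the 21 pairs and opposite signs in 11. In no pair were both genes called by limma, and since 1 gene alone of the 37 was called no pair could be. The ligand was far above its receptor in FPKM for CCL19 and CCR7 (medians of 77.1 and 2.17 FPKM in diabetic wounds) and for CXCL16 and CXCR6 (26.3 and 0.849 FPKM). CXCL12 and CXCR4 had the reverse order of FPKM in every wound, with ratios of 0.191 to 0.465 in diabetic and 0.192 to 0.318 in non-diabetic wounds. In reads, CXCL12 was above CXCR4 in every wound, for example 1493 against 596 in diabetic wound 1 and 1084 against 900 in non-diabetic wound 4. The FPKM order thus came from the counted lengths, 6661 bases for CXCL12 and 1062 for CXCR4. Lengths bear on such comparisons, since 5 of the 47 genes (CCL19, CCL3L1, CCR10, CXCR4 and XCL1) were counted over little more than their coding sequence, within 15 bases.

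The 10 genes under the expression limit were taken 1 at a time through an exact permutation test (two-sided) on log2(FPKM + 0.5), whose smallest possible p over 330 splits is 0.00303. The p-values ran from 0.109 for CCL16 to 0.961 for CXCR5, without adjustment. CCL16 had 0.616 and 0.597 FPKM in non-diabetic wounds 1 and 2, 0 in the other 2, and at most 0.0855 in diabetic wounds. XCL1, the ligand of XCR1 on cross-presenting dendritic cells, had 0 to 1.10 FPKM in diabetic wounds and 0 to 0.148 in non-diabetic wounds. XCR1 had 0.319 to 1.02 FPKM in diabetic wounds. Of its 7510 counted bases, 243 are shared with exons of CCR1 on the same strand, which leaves the levels of both genes uncertain to that extent. CCL1 and CCR9 had at most 2 and 6 reads in any wound, and CCR8 had 0.0632 to 0.293 FPKM. Of the tested genes not described so far, CCL25 had medians of 0.785 and 0.583 FPKM.

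Among 10 tested atypical receptors and related genes, 1 was called, where 3.00% of all tested genes were called. It was ACKR1, which was higher in diabetic wounds. ACKR1, the chemokine-transporting receptor of venules and red cells, had 21.7 FPKM at the lowest, 28.5 at the median and 44.4 at the highest in diabetic wounds. The non-diabetic wounds had 9.94, 10.7, 9.03 and 16.8 FPKM. The lowest diabetic wound lay above the highest non-diabetic wound. The log2 fold change was 1.33 (SE 0.21, limma adjusted p = 0.00652). It was 1.63 in the libraries named L (adjusted p = 0.102) and 1.07 in those named R (adjusted p = 0.0660). The summed FPKM of 10 blood endothelial markers, ACKR1 among them, was 276 to 346 in diabetic wounds and 252 to 324 in non-diabetic wounds. None of the other 9 was called, and PECAM1 had a log2 fold change of 0.02, CDH5 of -0.03 and VWF of 0.19.

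The scavenging receptors ACKR2, ACKR3 and ACKR4 had log2 fold changes of 0.18, 0.48 and -0.87 (limma adjusted p of 0.857, 0.441 and 0.223). ACKR4, which takes up CCL19, CCL21 and CCL25, had 4.77 to 18.2 FPKM in diabetic wounds (median 9.58) and 9.39, 17.2, 24.4 and 17.0 in non-diabetic wounds. ACKR3, which takes up CXCL12, had a median of 15.6 and a highest of 30.5 FPKM in diabetic wounds and 10.1, 8.47, 15.8 and 19.1 in non-diabetic wounds. Over the 10 tested genes of this list the median was 0.19 on the log2 scale, against 0.01 over all tested genes.

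Of 36 genes of receptor signalling, all tested, 1 was called higher and 0 lower, where 3.00% of all tested genes were called. This count lies near the background share and is no result about the list. PIK3R5, the regulatory subunit that couples PI3K gamma to G proteins, had 3.70 to 5.05 FPKM in diabetic wounds (median 3.88) and 3.23, 2.74, 2.28 and 3.18 in non-diabetic wounds. For PIK3R5 the log2 fold change was 0.50 (SE 0.12, limma adjusted p = 0.0460), at the limit of a call, and it remained called in 7 of 24 alternative analyses. RAC1, the most abundant member of this list, had 141 to 179 FPKM in diabetic wounds and 129, 148, 118 and 131 in non-diabetic wounds. Of the estimates in this list 26 were above 0 and 10 below, and their median was 0.12 on the log2 scale. Over all tested genes 7302 were above 0 and 6654 below, with a median of 0.01.

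The genes lie in clusters in the pig genome, 12 of the 47 on chromosome 12, 10 on chromosome 13 and 6 on chromosome 8. On chromosome 12 CCL3L1 and CCL4 had opposite signs. CCL14 and CCL5, the nearest of the other tested genes there, had log2 fold changes of 0.28 and 0.32. CCL2, CCL8 and CCL11 lie farther along, near each other, and had log2 fold changes of 0.09, -0.15 and -0.04. On chromosome 13 CCR1, CCR2 and CCR3 had log2 fold changes of 0.19, -0.30 and 0.52.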

How the data were processed

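RNA of 11 wounds excised on day 10 was sequenced with a strand-marking poly(A) protocol. Per the labels and the study's methods, reads were trimmed with fastp, mapped to Sscrofa11.1 with HISAT2 2.2.1, assembled with StringTie 2.2.3 and counted per gene with featureCounts 2.0.6. The strand setting, annotation release and FPKM formula are not given in the sources used here. The FPKM values were made by the authors and used as deposited, with 1 column per wound.

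Multiplying FPKM by gene length returned whole reads (100.0% of values within 0.05 reads), with totals of 28314785 to 40168372 per library. Genes that reached 0.5 FPKM in 4 or more libraries were tested on log2(FPKM + 0.5) with limma 3.58.1 in R 4.3.3 (trended empirical Bayes, no covariate, all 11 libraries, Benjamini-Hochberg adjustment over 13956 genes). A fold change on this scale understates the change of low genes. Calls required a log2 fold change beyond 0.5 in either direction with an adjusted p below 0.05. The test was checked on simulated data. Genes under the limit were compared with exact permutation tests in Python 3.11.15 with numpy 2.4.6. Sequences were read from the NCBI RefSeq genome and annotation of Sscrofa11.1.

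Members, gene lists, ligand-receptor pairs and alternatives were chosen with earlier results of these data known. Among the reported chemokine and receptor genes, each non-diabetic value and the diabetic range and median were given for those called or without overlap. The same was given for those among the 6 most abundant ligands and 4 most abundant receptors. Values of other genes picked after they were seen (CXCL8, CCL20, CXCL2, CXCR2, CXCL10, CXCL12, CCL4 and CCL26 among them) are descriptions. Alternatives covered pseudocount, filter, scaling, weights, trend, name letter, replicate number, voom and left-out wounds. 1 receptor among the tested genes entered every fit and count and is not reported here by name.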

Additional observations from a re-analysis of the deposited data

Results flagged for a closer look

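There were 6 values that stood far from the rest of their group, by a gap to the nearest wound that exceeded Dixon's 95% critical value. They came from 74 groups examined (8.11%). The critical value allows about 1 in 20 for normally distributed values. FPKM were used without a log scale, all 6 values were high ones, and the genes share wounds. The rate of 1 in 20 is therefore no background for this share. CCL2 reached 150 FPKM in non-diabetic wound 3, where the other 3 wounds of that animal had 46.5 to 51.3. CCL22 reached 4.17 FPKM and CXCL9 6.16 FPKM in non-diabetic wound 4. CXCL13 reached 21.4 FPKM in diabetic wound 2. CCL28 reached 2.65 FPKM in diabetic wound 6, from at most 62 reads in any diabetic wound. CCR1 reached 12.8 FPKM in diabetic wound 5, where the next diabetic wound had 9.79.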

How the results depend on the processing

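The count of called chemokine and receptor genes was 1 under 19 of 24 alternatives. It was 2 without the trend, where CCR3 joined (adjusted p = 0.0433), 0 without both wounds that stood apart, and 0 to 1 when each wound was left out in turn, with 0 without non-diabetic wound 1 or 2. In the libraries named R the 1 called gene was CCR2 (log2 fold change -0.77) in place of CCL3L1 (-0.71).

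Over the tested genes, deviations from the group means of log2(FPKM + 0.5) were correlated between same-numbered wounds. These correlations were -0.267, 0.215, 0.0678 and -0.483, so replicate numbers did not pair the wounds. With the replicate block 0 of these genes were called, and CCL3L1 had a log2 fold change of -1.46 (limma adjusted p = 0.246). With the replicate block 16 genes of 13956 were called, and ACKR1 had a log2 fold change of 1.53 (adjusted p = 0.136). The count over all genes, 419, became 822 with library weights, 212 without both wounds that stood apart, 9 in the libraries named L, 1415 in those named R, and 209 to 482 when each wound was left out. It was 209, 273, 220 and 255 without non-diabetic wounds 1, 2, 3 and 4, and 279 without diabetic wound 3. Fewer wounds enter the fits by letter and without wounds.

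Some estimates changed sign, and none of the values of changed sign was called. CCL2 was -0.04 with quantile normalization, -0.01 with the replicate block, -0.08 without both wounds that stood apart and -0.09 in R libraries. CXCL16 was -0.04 with quantile normalization and -0.16 in L libraries. CXCL8 was -0.19 with library weights and -0.99 in R libraries. In L libraries CCL20 was 1.58, CCL27 0.84 and CCR2 0.27. In R libraries CCR7 was -0.31, CXCR2 -0.19 and CXCR4 -0.11. With each wound left out, CCL2 ran from -0.07 to 0.49, CCL20 from -1.03 to 0.51, CCL27 from -1.61 to 0.38, CXCL16 from -0.05 to 0.13, CXCL8 from -0.22 to 0.89 and CXCR2 from -0.03 to 0.74. The cause was not tested. Of the tested genes, CCL26 and CCL3L1 had the lowest maximum read counts, with at most 22 and 35 reads per wound.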
